A study of Mus musculus with 11 samples.

Results

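Cells that divide after liver injury were located here by their own transcripts. In 4 mouse liver sections taken 48 h after paracetamol (acetaminophen, APAP), 1162 of 9884 spots were classed as proliferating and 6348 as non-proliferating, and the RNA of both classes was compared. The spots were chosen by the measured counts of Mki67, Top2a, Cdk1, Ccnb1, Ccnb2 and Birc5. A spot was proliferating when these genes summed to 2 or more UMIs (unique molecular identifiers, counts of captured RNA molecules) and non-proliferating when they summed to 0. The 2374 spots with exactly 1 UMI were in neither class. These 6 genes chose the spots, so their levels are given only as a description and they were left out of the tests.

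The series holds 11 Visium sections of snap-frozen mouse liver, with 3 uninjured at 0 h and, after APAP, 2 at 24 h, 2 at 36 h and 4 at 48 h. Visium reads polyadenylated RNA from capture spots laid out in a hexagonal array, and because a spot covers several cells, a proliferating spot is a small region with dividing cells in it, not a dividing cell. The mice were wild-type C57BL/6JCrl and were fasted before APAP. The labels name no mouse, and the methods speak of just a single liver per time in this assay, so n counts sections and p-values cover only the spread between sections. Every comparison between classes was made within the same sections. The 16 hepatocyte markers Alb, Ttr, Apoa1 and others were all measured. Together they took 113905 to 138952 UMIs per 1000000 (CPM) in the proliferating and 160153 to 179015 CPM in the non-proliferating sums.

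Hepatocytes of an adult liver rest outside the cell cycle and re-enter it after tissue loss. D-type cyclins with Cdk4 release E2F factors from the retinoblastoma protein. E2F then drives the genes of DNA replication, and later a set of G2 and M phase genes is switched on through MuvB complexes with B-Myb and FoxM1. The 6 genes of the rule belong mainly to that late set. Mki67 coats mitotic chromosomes, Top2a untangles DNA, Cdk1 is the mitotic kinase with Ccnb1 and Ccnb2 as its cyclins, and Birc5 is part of the chromosomal passenger complex. APAP kills hepatocytes around the central vein, and macrophages then enter the dead zone and clear it, while surviving hepatocytes next to it divide.

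Promoters of late cell cycle genes often carry CCAAT boxes, which bind NF-Y, and a cell cycle homology region (CHR) with the letters TTTGAA, which binds MuvB complexes. The promoters of 3 genes that were higher in proliferating spots are printed to show these letters. Ube2c followed from the rule for naming genes, while Racgap1 and Hmgb2 were added after their values were seen. Ccna2, which the rule also named, is not printed. Cdca3 was searched too but is not printed, because all 145 bases of its stretch lie inside the GENCODE gene model. Each line runs 5′ to 3′ on the gene's strand from base 150 to base 6 before the RefSeq start (GRCm38.p6), 145 bases, and capitals mark TTTGAA or CCAAT read on either strand, so that TTCAAA and ATTGG are matches on the other strand.
Ube2c, chr2:164769779-164769923, plus strand: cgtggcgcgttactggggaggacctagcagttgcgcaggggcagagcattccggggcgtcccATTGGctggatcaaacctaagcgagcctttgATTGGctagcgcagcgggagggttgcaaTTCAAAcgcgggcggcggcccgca
Racgap1, chr15:99651662-99651806, minus strand: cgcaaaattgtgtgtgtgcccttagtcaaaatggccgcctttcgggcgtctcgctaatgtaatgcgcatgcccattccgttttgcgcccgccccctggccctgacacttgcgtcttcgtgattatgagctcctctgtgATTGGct
Hmgb2, chr8:57511693-57511837, plus strand: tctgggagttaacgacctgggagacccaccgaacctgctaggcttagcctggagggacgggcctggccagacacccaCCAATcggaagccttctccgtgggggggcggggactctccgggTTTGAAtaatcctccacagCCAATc
Of the Ube2c stretch, 26 bases lie inside the longer gene model of the GENCODE annotation. In the window from 250 bases before to 50 after the start, Ube2c held 6 CCAAT matches and 1 TTTGAA match, 29 bases before the start. Hmgb2 held 4 CCAAT matches and 2 TTTGAA matches, with the nearer of these 30 bases before the start. Racgap1 held 1 CCAAT match 12 bases before the start, and its TTTGAA match lay 6 bases after it, outside the printed stretch. Cdca3 held 3 CCAAT matches and 1 TTTGAA match, 31 bases after the start. Short motifs are common: among 32851 promoters of the same window, 17.9% held TTTGAA and 37.4% held CCAAT. A match is only a match of letters.

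Proliferating spots made up 3.59% of spots in section A (122 of 3403, Wilson 95% interval 3.01 to 4.26%). In section B the share was 11.3% (169 of 1489, 9.84 to 13.1%), in section C 15.0% (388 of 2585, 13.7 to 16.4%) and in section D 20.1% (483 of 2407, 18.5 to 21.7%). The shares thus differed more between the 4 sections than counting error alone gives, and section A lay far below the others. At the other times the same rule found 1 spot in all at 0 h, 1 in each 24 h section, 7 of 1951 in 36 h section A and 18 of 2016 in 36 h section B. Summed over all spots, the 6 genes reached 3.1 to 4.9 CPM at 0 h, 6.1 to 7.5 at 24 h, 22.2 and 24.1 at 36 h, and 63.4, 132, 161 and 209 CPM at 48 h in sections A, B, C and D.

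**Figure D1:**
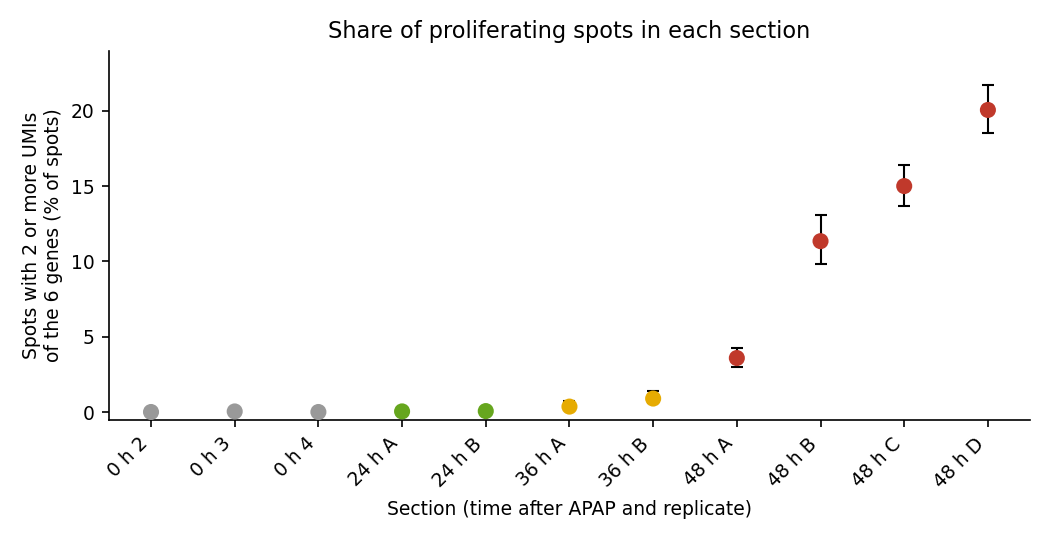
Share of spots with 2 or more UMIs of the 6 rule genes (y axis, percent of spots thinned to 4000 UMIs) in each of the 11 sections (x axis), with Wilson 95% intervals that cover counting error only. The 48 h sections range from 3.59% to 20.1%, and no earlier section exceeds 0.893%.

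Most proliferating spots lay near the threshold. Exactly 2 UMIs of the 6 genes were held by 102 of 122 proliferating spots in section A, 119 of 169 in B, 259 of 388 in C and 294 of 483 in D, and the highest spot held 8. Just outside the threshold, 589, 377, 680 and 728 spots of sections A to D held exactly 1. Cdk1 gave 23.7% of the UMIs, Birc5 22.0%, Mki67 19.1%, Top2a 18.2%, Ccnb1 8.99% and Ccnb2 8.07%. UMIs of a single gene made up the 2 or more in 23, 19, 41 and 52 spots of sections A to D, and 3 or more of the 6 genes were seen in 14, 25, 78 and 124.

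Each spot had been thinned to 4000 UMIs, and the UMIs that thinning left out give another reading of the same 6 genes in the same spots. In these held-out UMIs the 6 genes reached 101 CPM ± 35.0 (SD, n = 4 sections) in non-proliferating spots, 162 ± 41.8 in spots with 1 UMI, 246 ± 64.0 in spots with exactly 2 and 353 ± 69.7 in spots with 3 or more. The order of these 4 groups was the same in every section. The class of a single spot was far less stable than the class means. Of the proliferating spots, 24.6%, 32.0%, 39.9% and 46.0% in sections A to D were again proliferating when the thinning was drawn with another seed, and 37.7%, 31.4%, 32.7% and 22.4% held 0. Non-proliferating spots with at least 1 held-out UMI of the 6 genes made up 41.4%, 79.9%, 73.2% and 88.0% of their class, so the non-proliferating class is a class of low, not absent, signal.

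Proliferating spots lay close to macrophages. Macrophage-rich spots were those at or above the 90th percentile of their section for summed thinned UMIs of Gpnmb, Trem2, Mmp12, Lgals3, Cd68 and Lyz2, genes of macrophages that take up debris in injured liver. Among proliferating spots 46.7% were macrophage-rich in section A, 32.5% in B, 33.5% in C and 24.2% in D, while among non-proliferating spots the values were 6.20%, 5.09%, 4.61% and 3.26%. The mean difference was 29.5 percentage points (SD 8.14, n = 4; exact sign-flip permutation test over sections, two-sided p = 0.125). With 4 sections 0.125 is the smallest p this test can give, so it could not pass 0.05 for any measure.

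The mean distance to the nearest macrophage-rich spot was 1.15 grid steps for proliferating and 2.06 for non-proliferating spots, a difference of -0.914 steps (SD 0.171, shorter in 4 of 4 sections, exact permutation p = 0.125). In section A the pair of means was 0.926 and 1.99 steps, in B 1.11 and 1.81, in C 1.18 and 2.22, and in D 1.37 and 2.24. The share of proliferating spots went from 16.1%, 34.2%, 46.8% and 48.3% in macrophage-rich spots of sections A to D to 3.56%, 12.9%, 19.0% and 27.3% a single step away. At 2 steps it was 1.39%, 4.88%, 6.44% and 13.7%, and at 3 or more steps 1.46%, 8.09%, 7.41% and 10.2%. The drop lay within the first 2 steps in every section, and beyond them the intervals of neighbouring distances overlapped.

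**Figure D2:**
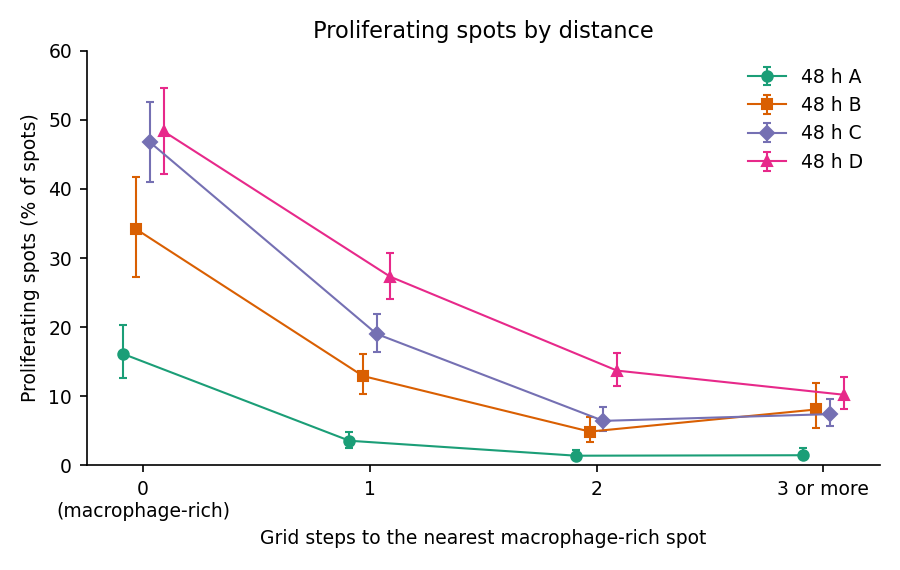
Share of proliferating spots (y axis, percent of spots) by the number of grid steps to the nearest macrophage-rich spot (x axis) in the 4 sections at 48 h, with Wilson 95% intervals. In section D the share is 48.3% in macrophage-rich spots and 10.2% at 3 or more steps, and in section A it is 16.1% and 1.46%.

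Proliferating spots were also next to each other. Of the spots adjacent to a proliferating spot 20.5% were proliferating on average, and of those adjacent to a non-proliferating spot 10.1%. The difference was 10.4 percentage points (SD 4.46), with the same direction in 4 of 4 sections. In sections A to D the pairs were 8.86% and 3.21%, 17.2% and 9.60%, 26.2% and 12.05%, and 29.7% and 15.4%. Spot and neighbour were both classed by the rule genes, so these shares only describe the class and no test is given. Depth did not separate the classes in a single direction: median UMIs before thinning were 19716.5 against 17435 in section A, 27003 against 27980 in B, 24126.5 against 23475 in C and 24261 against 25515 in D, proliferating spots first. At the same 4000 UMIs, proliferating spots held more genes (medians 1691 to 1800 against 1531 to 1559) and a smaller percentage of mitochondrial UMIs (2.07 to 2.69 against 2.55 to 3.58).

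The transcriptomes of both classes differed widely. UMIs were summed per section and class, and 10556 genes were tested with the section as a block. In proliferating spots 1702 genes were higher (16.1% of those tested) and 1726 lower (16.4%) at an adjusted p under 0.05. With TMM scaling the calls were 49.6% higher. With library totals in place of TMM they were 3891 higher and 804 lower, 82.9% higher, and that scaling moved the log2 difference of the median gene by 0.27. Levels of single genes below are TMM-scaled CPM of the sums. Sums of gene lists and their log2 ratios use CPM per library total. With library totals the median log2 difference of all tested genes was 0.28. A level is relative to all other RNA in the spot, so fewer cells of a type and less RNA per cell cannot be told apart.

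**Figure D3:**
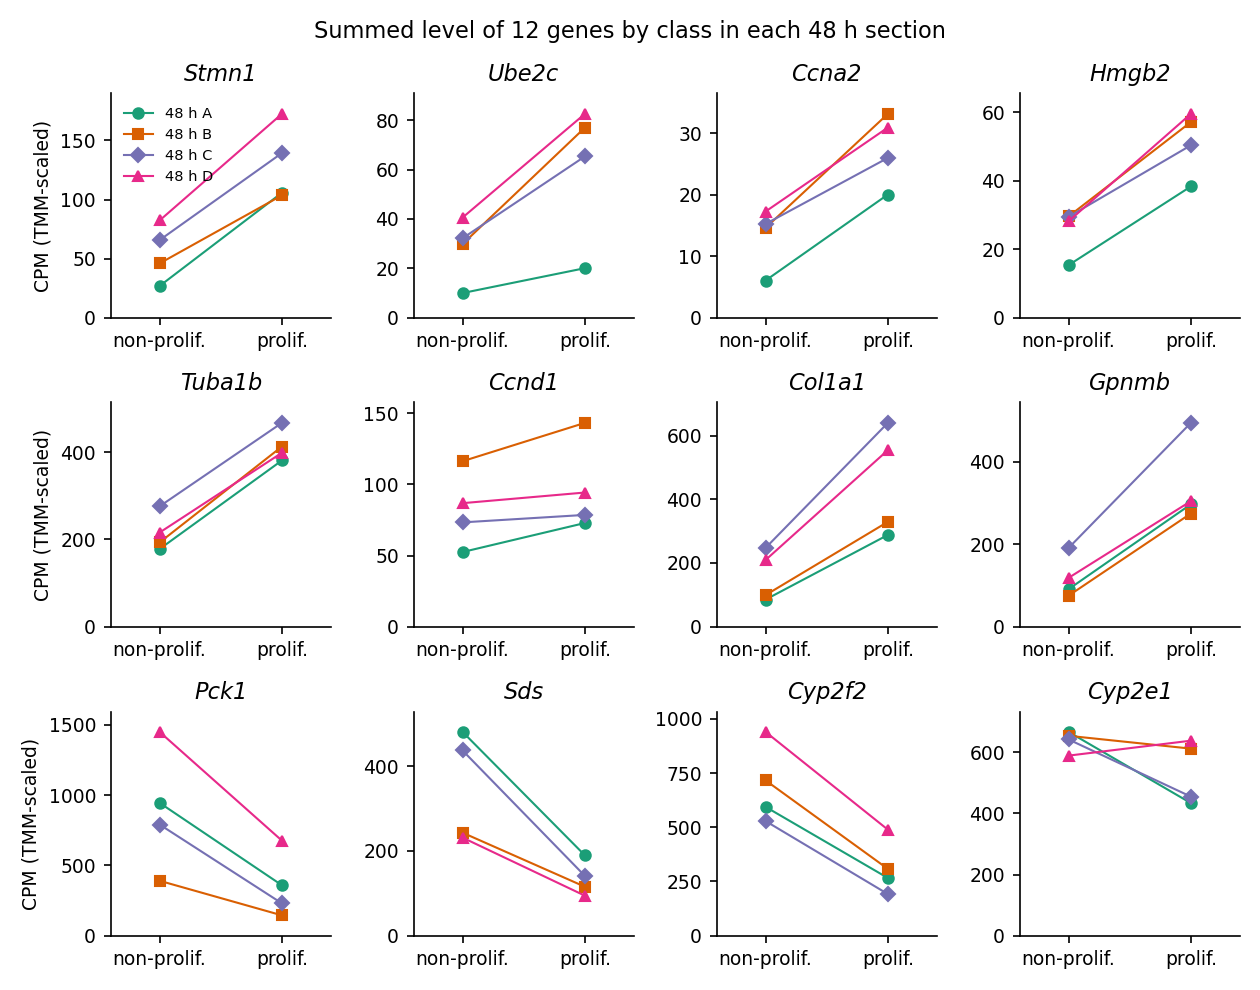
Summed level (y axis, TMM-scaled CPM) of 12 genes in the non-proliferating and proliferating spots of each 48 h section (lines join both classes of a section). Stmn1, Ube2c, Ccna2, Hmgb2, Tuba1b, Col1a1 and Gpnmb are higher and Pck1, Sds and Cyp2f2 lower in proliferating spots of all 4 sections, Ccnd1 did not pass the test, and Cyp2e1 is lower in 3 of 4.

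Genes of the cell cycle are made by the same cells that the rule genes mark, so their higher level is a description of the class and no independent finding. In the mitotic kinase list 20 of 26 tested genes were called higher and 1, Ccnf, lower (16.1% and 16.4% of all tested genes were called in these directions, and the median log2 difference of all genes was 0.01 against 0.98 in the list). The kinetochore and spindle list had 29 of 32 called higher (median 0.95) and the list of chromosome condensation and cytokinesis 16 of 18 (median 1.12), with none lower in either. The replication list had 27 of 44 higher and Mcm10 lower (median 0.56), and the list of nucleotide supply and repair 9 of 16 higher (median 0.56). On the scale of summed CPM per library total, the condensation list stood at 398 ± 65.4 CPM against 171 ± 35.2 (mean ± SD, n = 4), the kinetochore list at 639 ± 158 against 311 ± 72.2 and the replication list at 1223 ± 102 against 657 ± 93.8.

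Ube2c (chromosome 2, 164769898 to 164778822, plus strand, mm10), the ubiquitin-conjugating enzyme of the anaphase-promoting complex, stood at 20.05, 77.0, 65.3 and 82.6 CPM in proliferating spots of sections A to D and at 9.97, 29.8, 32.2 and 40.6 CPM in non-proliferating spots. Its log2 difference was 1.09 (SE 0.11), section A was low in both classes, and the classes overlapped. Ccna2, the cyclin of S phase and G2, stood at 20.05, 33.2, 26.0 and 31.0 CPM against 6.04, 14.6, 15.3 and 17.3 CPM (log2 difference 0.96, SE 0.17). Every proliferating value of Ccna2 lay above every non-proliferating value. Of all tested genes, 9.87% were separated in this way with proliferating spots higher and 10.1% with them lower.

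Racgap1 (chromosome 15, 99620496 to 99651656, minus strand), needed for the cleavage furrow, reached 14.6, 26.5, 29.5 and 40.8 CPM against 6.65, 8.19, 15.99 and 18.4 CPM (log2 difference 1.12, SE 0.16). Hmgb2 (chromosome 8, 57511907 to 57515999, plus strand), a chromatin protein of dividing cells, reached 38.3, 57.1, 50.3 and 59.5 CPM against 15.3, 29.5, 29.4 and 28.1 CPM (log2 difference 0.98, SE 0.12). Among the higher genes with low counts were Plk1, a mitotic kinase (18.9 ± 7.31 against 7.41 ± 3.04 CPM), Ckap2, a spindle protein (18.9 ± 4.49 against 6.14 ± 3.11) and Cep55, which acts at abscission (4.73 ± 0.822 against 1.76 ± 0.750). For replication, Atad2, a chromatin ATPase, stood at 27.3 ± 5.99 against 12.4 ± 2.39 CPM and Rrm2, the regulated subunit of ribonucleotide reductase, at 42.6 ± 13.9 against 21.9 ± 6.02.

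The list of tubulins and growth-associated chromatin had 16 of 19 genes called higher and Tubb2a lower (median log2 difference 0.60, against 0.01 for all genes). Of all tested genes 16.1% were called higher and 16.4% lower. Stmn1, which destabilises microtubules, had the largest difference of the 10 cell cycle genes named for size, with 106, 104, 139 and 172 CPM in proliferating spots of sections A to D against 26.8, 45.9, 65.6 and 82.3 CPM (log2 difference 1.22, SE 0.10). The classes did not overlap for Stmn1. Tubb6 stood at 89.0 ± 5.45 against 40.0 ± 6.12 CPM, Tuba1b at 415 ± 37.2 against 216 ± 43.0, Tuba1a at 75.0 ± 14.9 against 36.5 ± 9.51 and the nucleosome binder Hmgn2 at 73.9 ± 21.8 against 35.7 ± 4.89 CPM. The alpha tubulins are close copies of each other, so the split of counts between Tuba1a and Tuba1b is uncertain. In spots with few transcripts of other cells, described further on, 4 of the 19 list genes were called higher (median 0.20), against 17 of all 8250 genes tested.

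The G1 list showed the smallest shift of the cell cycle lists, with 8 of 19 tested genes called higher, none lower and a median log2 difference of 0.48. Of all tested genes 16.1% were called higher. Called were the D-type cyclins Ccnd2 (0.80) and Ccnd3 (0.48), their kinase Cdk4 (0.48), the E2F factors E2f1 (0.78) and E2f8 (0.79), and the cyclin-dependent kinase inhibitors Cdkn2c (0.89), Cdkn2d (0.59) and Cdkn1a (0.48). Ccnd1, the D-type cyclin best known from regenerating liver, stood at 72.9, 143, 78.6 and 94.3 CPM against 52.5, 116, 73.4 and 86.9 CPM (log2 difference 0.21, SE 0.09, edgeR quasi-likelihood adjusted p = 0.0838). Its proliferating value was above the non-proliferating one in each section, but the spread between sections was larger than that step. Ccne1 (0.47, adjusted p = 0.180), Cdk2 (0.51, 0.0519), E2f2 (0.79, 0.0815), E2f3 (0.66, 0.0734), Myc (0.36, 0.220), Cdk6 (0.28, 0.186), Rbl1 (0.57, 0.103), Cdkn1b (0.24, 0.550), Rb1 (0.27, 0.504) and Rbl2 (-0.19, 0.552) did not pass. Of the 18 ribosome biogenesis genes 5 were called higher (Ncl, Nop56, Gar1, Npm1 and Nhp2), with a list median of 0.16 against 0.01 for all genes. Npm1, the nucleolar chaperone, stood at 201 ± 28.8 against 150 ± 17.2 CPM.

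The p53 target list had 5 of 12 genes called higher and 1 lower, with a median log2 difference of 0.23. Of all tested genes 16.1% were higher and 16.4% lower. Phlda3, an inhibitor of Akt, had the largest step, from 13.4 ± 4.76 to 32.4 ± 6.06 CPM (log2 difference 1.20, SE 0.16, adjusted p = 8.22e-08). Bax, which opens the mitochondrial outer membrane, stood at 159, 157, 180 and 148 CPM in proliferating against 84.9, 84.5, 113 and 99.1 CPM in non-proliferating spots (0.73, SE 0.08). For Bax the classes did not overlap. Ei24 was lower at 83.4 ± 11.2 against 121 ± 6.003 CPM (-0.52, adjusted p = 1.12e-05), so the list did not move one way.

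**Figure D4:**
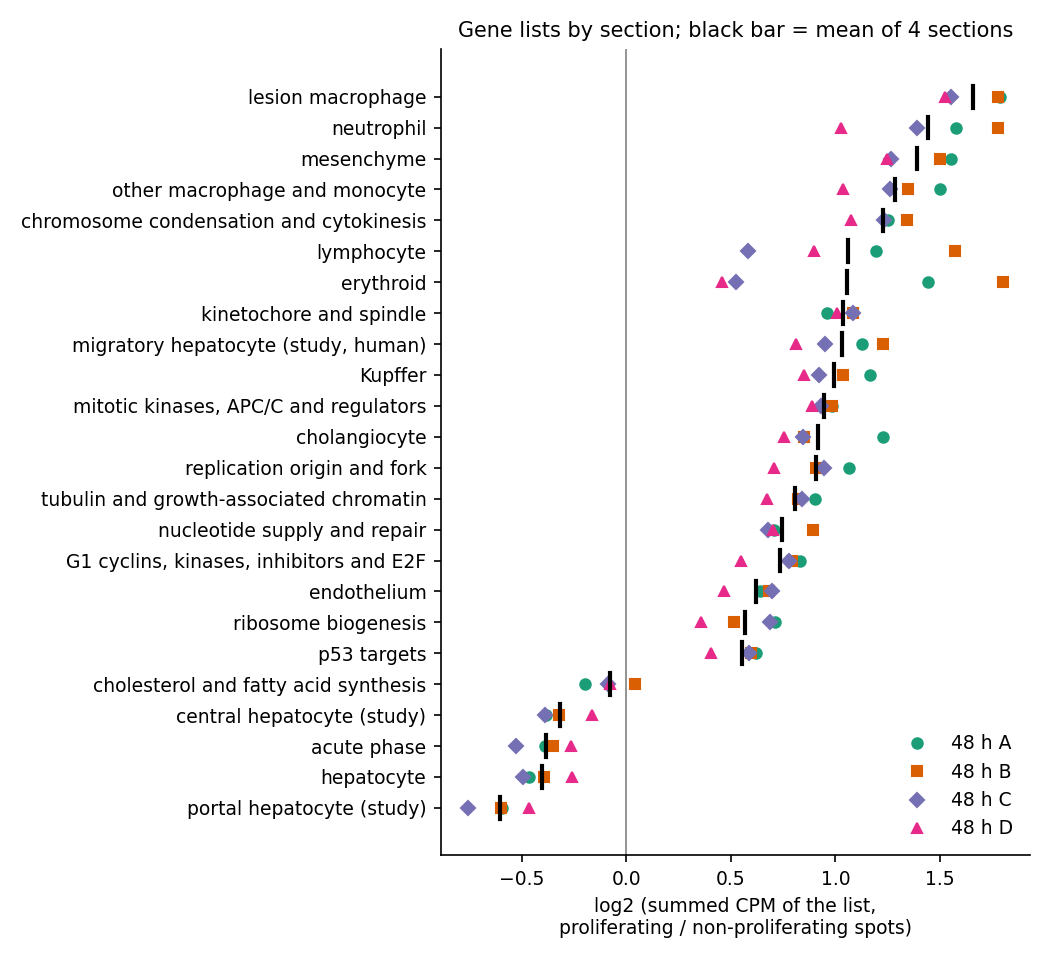
Log2 ratio of the summed CPM (per library total) of each of 24 gene lists between proliferating and non-proliferating spots (x axis) in the 4 sections at 48 h, sorted by the mean (black bar). With library totals the median log2 difference of all tested genes is 0.28. Lesion macrophage genes lie highest (mean 1.66), portal hepatocyte genes lowest (mean -0.60), and cholesterol and fatty acid synthesis lies on both sides of 0 (mean -0.08).

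Beyond the cell cycle, the 12 genes named for the size of their rise included genes of macrophages and other leukocytes (Gpnmb, Chil3, Cd53) and of the extracellular matrix (Col1a1, Fbln2, Col6a3). The others were Ccl7, Lat2, Basp1, Adam8, Capg and Pf4. Their log2 differences ranged from 1.44 to 1.65, and each of the 12 was higher in 4 of 4 sections. Ccl7, a chemokine that draws monocytes, stood at 124, 95.6, 68.2 and 44.7 CPM in proliferating spots of sections A to D and at 32.7, 30.4, 25.4 and 14.3 CPM in non-proliferating spots (1.65, SE 0.11, adjusted p = 1.02e-14). Section D was lowest in both classes, and the classes did not overlap. Gpnmb, a glycoprotein of lipid-laden macrophages, stood at 297, 275, 495 and 305 CPM against 90.9, 75.1, 191 and 118 CPM (1.53, SE 0.08, adjusted p = 5.76e-18). Col1a1, a chain of fibrillar collagen, stood at 288, 329, 640 and 554 CPM against 85.0, 99.1, 247 and 209 CPM (1.52, SE 0.08, adjusted p = 1.51e-18).

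The lists of other cell types moved with the class, while 16.1% of all tested genes were called higher and 16.4% lower. All 6 lesion macrophage genes were called higher, and their sum ranged from 2646 to 4173 CPM in proliferating and from 773 to 1425 CPM in non-proliferating sums. Of the other macrophage and monocyte genes 12 of 13 tested were higher (Itgam, an integrin of monocytes, by 1.64 and Ctss, a lysosomal protease, by 1.28 on the log2 scale), and of the Kupffer cell genes 8 of 9 (C1qb, a complement chain, by 0.90). The mesenchyme list had 10 of 12 higher and summed to 2283 to 3657 CPM against 779 to 1523 CPM, with the smooth muscle actin Acta2 at 146 ± 23.3 against 56.1 ± 8.06 CPM. The endothelial list had 5 of 11 higher, with the junction protein Pecam1 at 33.3 ± 4.95 against 18.3 ± 3.57 CPM, and Clec4g lower. The part of these cells in the differences of the cell cycle genes was not tested beyond the comparisons by place and in spots with few such transcripts, given further on.

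Fewer genes of the blood and duct cell lists could be tested, and the neutrophil and lymphocyte lists had the fewest counts of the cell type lists. The 3 neutrophil genes that could be tested were higher (S100a8 at 60.2 ± 34.7 against 26.8 ± 15.0 CPM), the list summed to 72.5 to 291 against 35.5 to 111 CPM, and Ly6g was at 0 in every proliferating sum. Of 16 lymphocyte genes 2 could be tested and Cd79b was higher, with the list at 28.7 to 35.5 against 11.9 to 21.1 CPM. The erythroid list summed to 657 to 1760 against 365 to 547 CPM, but its globins did not pass the test (Hba-a1 0.82, adjusted p = 0.141), and Alas2 was lower (-0.96). Of 4 tested cholangiocyte genes Spp1 (0.75) and Cd24a were higher and Cdh1 lower (-0.57).

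Hepatocyte genes were lower in proliferating spots. All 16 hepatocyte markers were called lower (16.4% of all tested genes were), with a median log2 difference of -0.74, and Fgg, a fibrinogen chain, stood at 2494 ± 419 against 4554 ± 746 CPM. Of the 12 acute phase genes 11 were lower, among them C-reactive protein (Crp) at 239 ± 23.4 against 417 ± 24.3 CPM. Saa1 was lower by 0.93 in log2, although its level ran from 29.2 CPM in section A to 598 CPM in section D among proliferating spots. Saa1 and Saa2 are near copies, so their split is uncertain. Of the 18 genes of cholesterol and fatty acid synthesis 7 were lower, with the lipogenic factor Srebf1 at 87.4 ± 34.5 against 154 ± 62.7 CPM. With library totals in place of TMM 2 of the 18 were higher and 3 lower, while 3891 of all 10556 genes were higher and 804 lower. On that scale the median log2 difference was 0.02 for the list and 0.28 for all genes. In spots with few transcripts of other cells, described further on, 3 of the 16 hepatocyte markers were called lower (median -0.15). Of the 12 acute phase genes 2 were lower there (median -0.14), and of all 8250 genes tested there 57.

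The 12 genes with the largest fall included enzymes and transporters of hepatocytes. Pck1, the rate-limiting enzyme of gluconeogenesis, stood at 359, 145, 230 and 677 CPM in proliferating spots of sections A to D and at 945, 391, 791 and 1450.5 CPM in non-proliferating spots (log2 difference -1.41, SE 0.08, adjusted p = 5.57e-17). Sds, serine dehydratase of portal hepatocytes, stood at 190, 115, 141 and 94.3 CPM against 481, 243, 437 and 231 CPM (-1.37, SE 0.08, adjusted p = 3.28e-16). For Sds the classes did not overlap, and for Pck1 they overlapped. The sterol exporter Abcg5 (-1.26), the mitochondrial aldehyde dehydrogenase Aldh1b1 (-1.37), the phospho-lyase Etnppl (-1.33), the amino acid transporter subunit Slc3a1 (-1.19), Hsd17b6 (-1.19), the adhesion molecule Ceacam1 (-1.17), Shroom1 (-1.25), the receptor subunit Il1rap (-1.16) and the long non-coding RNA Gm48633 (-1.19) were lower in all 4 sections.

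Zonation lists fell unequally. These lists were drawn in the study on its own spatial data and are no independent evidence of direction. All 12 portal genes were lower, with a median log2 difference of -0.98 on the TMM scale. Per library total, the portal list summed to 12279 ± 2776 against 18509 ± 2903 CPM. Cyp2f2, a portal cytochrome P450, stood at 266, 308, 192 and 489 CPM against 594, 716, 529 and 940 CPM (-1.18, SE 0.07, adjusted p = 7.98e-16). Of the 23 central genes 22 were lower, with a median of -0.52, led by the carbonic anhydrase Car3 (-1.09) and the sulphotransferase Sult2a8 (-1.02). Of all tested genes 16.4% were called lower. With library totals 16 of the 23 central genes remained called lower, as did all 12 portal genes. In spots with few transcripts of other cells, described further on, 1 central gene was lower and 2 were higher (median -0.06). There 6 of the 12 portal genes were lower (median -0.23), against 57 of all 8250 genes tested. In the far spots of the comparison by place 10 central genes were lower and 2 higher, and 11 portal genes were lower, against 6.47% of all genes.

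Of a pair of central genes, chosen after their values were seen, Lect2 went against the list and Cyp2e1 was called lower with it. Lect2, a secreted chemotactic protein, was higher in proliferating spots at 297, 386, 400 and 369 CPM against 256, 351, 342 and 256 CPM (log2 difference 0.29, SE 0.07, adjusted p = 0.00144). Cyp2e1, the cytochrome P450 that turns APAP into its toxic product, stood at 434, 612, 455 and 638 CPM against 667, 654, 642 and 589 CPM (-0.25, SE 0.08, adjusted p = 0.0138). Cyp2e1 was lower in sections A, B and C and higher in D, and with library totals its difference was 0.03 and was not called.

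The study's human signature of migratory hepatocytes was examined next. Of its 21 mouse genes 13 could be tested. Of these 8 were called higher and none lower (Itgav, Bicc1, Tpm1, Anxa2, Plod2, Mkl1, Slc38a1 and Tnfaip8), with a median log2 difference of 0.62. In spots with few transcripts of other cells 0 of 7 tested genes of this signature were called (median -0.06). Of all 8250 genes tested there, just 17 were higher and 57 lower. In the far spots of the comparison by place 1 of 6 was called higher (median 0.34), against 4.26% of all genes tested. Both comparisons are described further on. Anxa2 (chromosome 9, 69453620 to 69491795, plus strand), a calcium-dependent membrane binder, stood at 510, 384, 536 and 221 CPM in proliferating against 267, 178, 306 and 111 CPM in non-proliferating spots (0.95, SE 0.07, adjusted p = 5.42e-14). It was higher in each section, and the classes overlapped, with section D lowest in both. In injured mouse liver the paper found Anxa2 in leukocytes, mesenchyme and endothelia as well. Their part in this rise was not tested beyond the comparisons just named. Krt18, a keratin of hepatocytes and duct cells named after its value was seen, stood at 1454, 1043, 1579 and 392.1 CPM against 972, 736, 1126 and 328 CPM (0.46, SE 0.06).

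Because proliferating spots lay near macrophages, the classes were next compared at a matched place. A single fit with both strata tested 6309 genes, with a class difference inside macrophage-rich spots (57, 55, 130 and 117 proliferating and 167, 48, 70 and 39 non-proliferating spots in sections A to D), a class difference at least 2 steps away from them (29, 49, 103 and 179 against 1739, 592, 1028 and 880 spots), and the difference between these. Away from macrophage-rich spots 269 genes were called higher (4.26%) and 408 lower (6.47%). Inside them 0 were called higher by edgeR and 27 lower (0.428%), while 171 and 296 had an unadjusted p under 0.05. The strata differed for 84 genes. In 64 of them (1.01%) the class difference was smaller in macrophage-rich spots and in 20 (0.317%) it was larger. The numbers of spots differed between strata, so the counts of calls do not by themselves compare them, and they moved with the limit that defined the strata. With macrophage-rich spots taken from the 80th percentile, which left 16, 19, 50 and 84 far proliferating spots, the counts were 89 higher and 190 lower inside, 20 higher and 64 lower far away, and 0 and 13 for the difference. Without section C 121 genes were higher and 210 lower far away and 0 were lower inside, and without section D 6 were higher and 51 lower inside.

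In the far spots some of the cell cycle genes were called higher, with counts of 6 of 9 condensation genes (median log2 difference 0.99), 5 of 13 kinetochore genes (0.92), 4 of 10 mitotic genes (0.73), with 1 lower, 8 of 18 tubulin and chromatin genes (0.41), 6 of 28 replication genes (0.56), 2 of 9 G1 genes (0.32) and 0 of 8 genes of nucleotide supply and repair (0.35). Of all genes tested in far spots 4.26% were called higher and 6.47% lower. Inside macrophage-rich spots no gene of these cell cycle lists was called in either direction. Ube2c stood at 26.8, 64.3, 51.0 and 70.6 CPM in far proliferating spots of sections A to D against 8.86, 26.8, 28.0 and 36.0 CPM (1.01, SE 0.21, adjusted p = 8.68e-05). In macrophage-rich spots it stood at 19.5, 107, 73.8 and 103 against 35.2, 47.6, 67.8 and 47.9 CPM (0.43, SE 0.24, adjusted p = 0.734), and the difference between strata did not pass (-0.58, SE 0.32, adjusted p = 0.605). With the 80th percentile limit the far difference of Ube2c was 0.57 and was not called (adjusted p = 0.663), while that of Stmn1 was 0.81 and was called. Stmn1 stood at 97.1 ± 30.5 against 46.2 ± 26.4 CPM far away (0.92, adjusted p = 3.39e-07) and at 167 ± 59.9 against 126 ± 36.3 CPM in macrophage-rich spots (0.36, adjusted p = 0.530). When far spots were fitted alone, 9 of the 34 genes named for size lost the call. Among these were Ccna2 (0.74, edgeR adjusted p = 0.244), Racgap1 (0.99, 0.0525) and Hmgb2 (0.73, 0.0519).

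The level of these lists depended on place as well as on class. On the scale of summed CPM per library total, the kinetochore list stood at 801 ± 186 CPM in proliferating and 688 ± 173 CPM in non-proliferating macrophage-rich spots, and at 458 ± 146 and 263 ± 60.5 CPM in far spots. The non-proliferating macrophage-rich spots thus had a higher mean than the far proliferating spots. The class step was 0.23 ± 0.05 (mean log2 ± SD, n = 4) inside and 0.76 ± 0.23 far away, larger far away in 4 of 4 sections (exact permutation p = 0.125, the smallest possible). For the migratory list the steps were 0.05 ± 0.17 and 0.79 ± 0.22, and for the mesenchyme list 0.29 ± 0.15 and 0.89 ± 0.19, both larger far away in 4 of 4 sections. The lesion macrophage list, which defines the strata, stood at 1140 CPM in proliferating against 623 CPM in non-proliferating spots even among far spots, so the place was matched in part only.

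**Figure D5:**
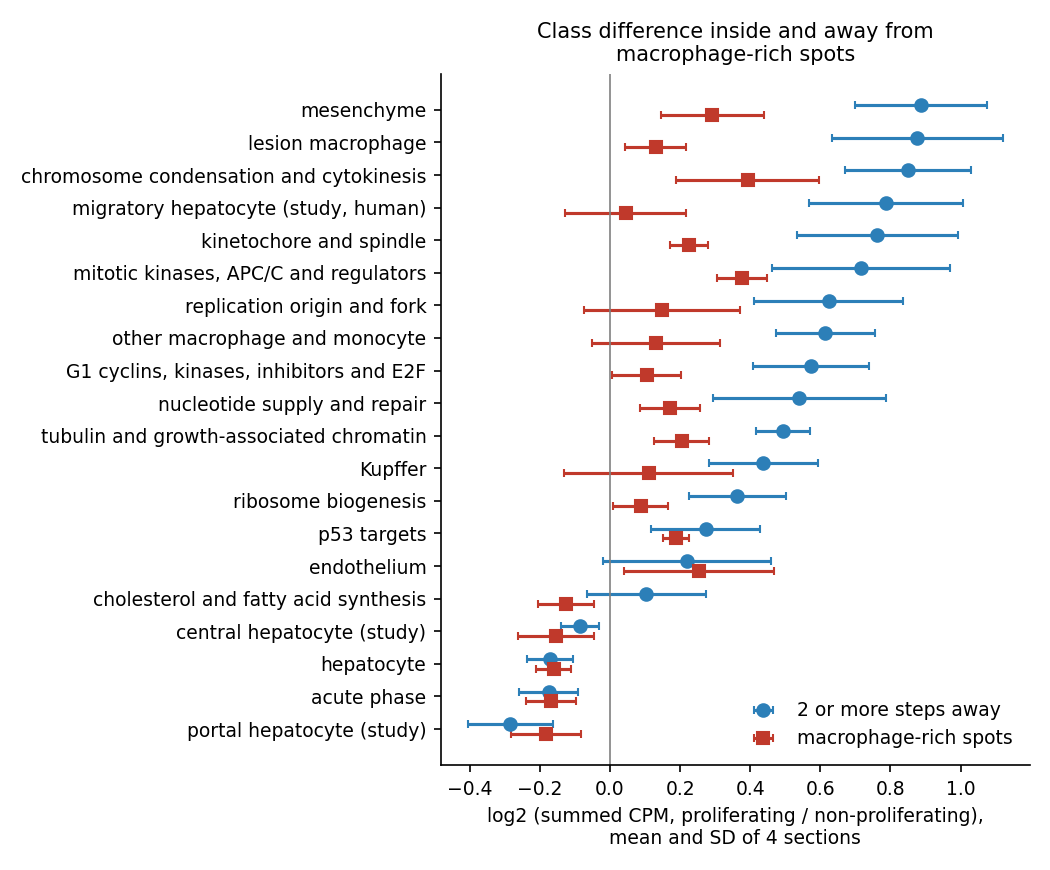
Log2 ratio of the summed CPM (per library total) of 20 gene lists between proliferating and non-proliferating spots (x axis, mean and SD of 4 sections) in macrophage-rich spots (squares) and at least 2 steps away (circles). The kinetochore list lies at 0.23 and 0.76 and the migratory list at 0.05 and 0.79, while the hepatocyte list lies at -0.16 and -0.17.

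Genes with the largest called rise in far proliferating spots were Cxcl10, an interferon-induced chemokine (30.3 ± 24.2 against 8.90 ± 2.33 CPM, log2 difference 1.50, adjusted p = 0.00163), Cpe, a carboxypeptidase (1.46), Syngr1 (1.35), Atad2 (1.33) and Hmox1, haem oxygenase 1 (1.26). Hmox1 stood at 107, 48.2, 138 and 55.2 CPM in far proliferating spots of sections A to D against 40.6, 35.2, 47.7 and 25.3 CPM (SE 0.17, adjusted p = 6.67e-10). In macrophage-rich spots it was high in both classes, at 234, 206, 330 and 190 CPM against 272, 219, 323 and 174 CPM, and the strata differed (-1.31, SE 0.21, adjusted p = 7.55e-07). The largest falls among far spots were those of Atg9a (-1.02), Abcg5 (-1.003), Stard4 (-0.93), Csnk2a1 (-0.86) and Slco1a4 (-0.83). Of these 10 genes Abcg5 and Slco1a4 kept the call in far spots with the 80th percentile limit. With a section left out, Cxcl10 lost the call without A (1.21, adjusted p = 0.0603), Syngr1 without A or C, Atg9a and Slco1a4 without C, Stard4 without B or C, and Csnk2a1 without A, B or C. With all UMIs summed, Stard4 was at -0.11 (adjusted p = 0.532) and Csnk2a1 at -0.17 (adjusted p = 0.323).

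For several genes the class difference depended on place. In far spots Cyp2e1 was higher in the proliferating class, at 473, 863, 673 and 758 CPM against 595, 547, 633 and 551 CPM (0.29, SE 0.08, adjusted p = 0.0145), lower in section A and higher in B, C and D. This call was lost without section B (0.20, adjusted p = 0.165), without D (0.22, 0.0953) and with all UMIs summed (0.24, 0.161). In macrophage-rich spots its values were 366, 321, 290 and 417 CPM against 420, 538, 326 and 420 CPM (-0.26, adjusted p = 0.586), and the strata differed (-0.55, SE 0.15, adjusted p = 0.0384). Lect2 stood at 0.45 far away (adjusted p = 2.85e-05, but 0.333 with the 80th percentile limit) and -0.17 in macrophage-rich spots (adjusted p = 0.782), with a difference of -0.63 (adjusted p = 0.00199). Krt18 stood at 0.59 far away and -0.15 in macrophage-rich spots (difference -0.74, SE 0.10, adjusted p = 5.88e-09). Anxa2 stood at 299 ± 107 against 158 ± 72.2 CPM far away and at 538 ± 167 against 524 ± 144 CPM in macrophage-rich spots (difference -0.88, SE 0.14, adjusted p = 4.52e-07). For Tubb6, a beta tubulin, the values were 73.2 ± 7.50 against 30.6 ± 6.14 CPM far away and 111 ± 9.88 against 111 ± 12.6 CPM in macrophage-rich spots (difference -1.13, adjusted p = 0.00415). Col1a1 stood at 212 ± 124 against 106 ± 60.1 CPM far away and at 817 ± 328 against 682 ± 330 CPM in macrophage-rich spots (difference -0.71, adjusted p = 0.000108).

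For the portal genes Sds and Cyp2f2 the class difference depended on place too. Sds stood at 265 ± 87.2 against 454 ± 176 CPM far away (-0.80, adjusted p = 1.01e-12) and at 87.4 ± 38.6 against 89.4 ± 39.4 CPM in macrophage-rich spots (difference between strata 0.76, adjusted p = 0.0385). Cyp2f2 stood at 550 ± 199 against 849 ± 201 CPM far away and at 194 ± 72.4 against 186 ± 40.2 CPM in macrophage-rich spots (difference 0.62, adjusted p = 0.0169).

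These differences between strata were sensitive to the limit. Of the 16 genes tested for it that are named here or in the closing section, only Cyp2e1 kept the call with the 80th percentile limit (-0.80, adjusted p = 9.06e-08). Then Hmox1 was at -0.27 (adjusted p = 0.970), Anxa2 at -0.51 (0.565), Krt18 at -0.41 (0.0797), Lect2 at -0.42 (0.695), Tubb6 at -0.65 (0.837), Sds at 0.41 (0.776) and Cyp2f2 at 0.097 (0.970), and Col1a1 turned to 0.10. With a section left out in turn, Hmox1, Krt18, Anxa2 and Col1a1 kept the call each time, Cyp2e1 lost it without B (adjusted p = 0.495) and also when all UMIs were summed (0.110), Lect2 and Tubb6 lost it without C, Sds without A, B or C, and Cyp2f2 without B, C or D.

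The secreted hepatocyte protein albumin was lower in both places. Albumin (Alb) was lower by 0.36 in log2 far away (adjusted p = 4e-11) and by 0.22 in macrophage-rich spots (adjusted p = 0.00418), and 14 and 9 of the 16 hepatocyte markers were called lower there. The calls in macrophage-rich spots changed when single sections were left out. Without section C 0 genes were called lower there and without B 5, and Alb lost the call without A, B or C (adjusted p = 0.135, 0.149 and 0.132). Among the largest called falls in macrophage-rich spots were those of the antigen-presenting molecule Cd1d1 (-0.72, adjusted p = 0.0363), the mitochondrial transcripts mt-Co2 (-0.44) and mt-Nd1 (-0.43), and Mat1a (-0.39), the methionine adenosyltransferase of hepatocytes.

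The comparison was repeated in spots with few transcripts of other cells, those at or under their section's median of all non-hepatocyte markers together, which held 18, 35, 74 and 122 proliferating and 1637, 599, 939 and 747 non-proliferating spots. Of 8250 genes 17 were called higher and 57 lower. The 17 held cell cycle and tubulin genes, namely Stmn1 (0.83), Ube2c (1.002), Cdca3 (1.35), Tubb6 (1.05), Mcm5 (1.01), Ube2s, Tubb5 and H2afz, beside Nupr1 (1.32), Krt18, Klf6, Ywhah, Selenoh, Hivep1, Ccl5, Lect2 and Cyp2e1 (0.48, adjusted p = 9.0e-07). Of the 12 genes with the largest fall in all spots 4 were called lower, namely Abcg5, Sds (-0.58), Cyp2f2 (-0.44) and Pck1 (-0.40). For the macrophage genes Gpnmb and Lyz2 the log2 difference was -0.10 and -0.01, but spots rich in them had been left out by construction.

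Spots with exactly 1 UMI of the 6 genes lay between the classes. Against the non-proliferating spots 925 genes were called higher and 947 lower, of which 802 and 893 were also called in the proliferating spots. The condensation list had a median log2 difference of 0.51 in these spots against 1.12 in proliferating spots, the kinetochore list 0.46 against 0.95, the hepatocyte list -0.26 against -0.74 and the portal list -0.35 against -0.98. Both comparisons share the non-proliferating spots. In the spots with 3 or more UMIs the mean log2 ratio of the lesion macrophage list was 2.05 against 1.66 for all proliferating spots, and 49.7% of them were macrophage-rich.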

How the data were processed

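Values were raw UMI counts per gene and spot, which the authors made with Space Ranger 1.0.0 on mm10 and deposited without a spot filter or normalisation. Tissue-covered spots with a minimum of 800 genes, at most 20% mitochondrial UMIs and at least 4000 UMIs were kept (1489 to 3403 per 48 h section, 43598149 to 60820141 UMIs) and thinned to 4000 UMIs with a fixed seed. UMIs were summed per section and class (488000 to 10768000 UMIs) and tested in edgeR 4.0.16 (R 4.3.3, quasi-likelihood, robust, TMM, filterByExpr, section as block, two-sided, Benjamini-Hochberg adjustment over all genes tested). The block pairs both classes of a section, which come from the same tissue. The steps were first tested on simulated data. List sums and positions used exact sign flips over 4 sections. Wilson intervals cover counting error only, since spots of a section are not independent.

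Genes were named by rule: those called, with the same sign in all 4 sections and a mean of at least 20 CPM, taking the 10 largest rises of cell cycle lists, the 12 other largest rises, the 12 largest falls, all tested G1 genes, up to 4 members per list, and 5 per direction in the strata. Lect2, Cyp2e1, Krt18, Alb, the strata values of Anxa2, Tubb6 and Col1a1, and the genes called in spots with few transcripts of other cells were named after their values were seen. The members, the rule and the lists were chosen with earlier results of these data known. Positions are those of GENCODE vM21 (mm10), and promoters those of RefSeq. Alternatives were no block, library totals, DESeq2 1.42.0, no filter, all UMIs, another seed, other UMI thresholds, other places and each section left out. The 36 h comparison was not run, since both sections held fewer than 20 proliferating spots. Images and manual spot removal were not used here. Some results for single genes are not reported here.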

Additional observations from a re-analysis of the deposited data

Results flagged for a closer look

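Among 62 sets of 4 section values examined, 6 held a section far from the other 3, with a gap, as a share of the range, over Dixon's 95% critical value, and chance flags about 1 in 20 such sets. Of the log2 class ratios, section A stood apart for Stmn1 (gap 0.885 of the range, 1.98 against 1.07 to 1.17), and section B for Ube2c (0.949, 1.37 against 1.01 to 1.03), Tuba1a (0.909, 1.61 against 0.82 to 0.90) and the nucleotide supply and repair list (0.877, 0.89 against 0.68 to 0.71). Section D stood apart for Il1rap (0.859, -0.80 against -1.43 to -1.34) and the p53 target list (0.831, 0.40 against 0.58 to 0.62). In each of these 6 the direction was the same in all 4 sections.

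The class difference in macrophage-rich spots minus that in far spots passed the interaction test for 84 genes. The largest positive values at 20 CPM or more were those of Sds (0.76), Coq8a (0.72), Angptl8 (0.71), Cyp2f2 (0.62) and Hgd (0.61). The largest negative values were those of Ces2c (-1.90), Syngr1 (-1.83), Cpe (-1.72), Aldh3a2 (-1.40) and Hmox1 (-1.31). With macrophage-rich spots taken from the 80th percentile none of these 10 genes kept the call (Ces2c -1.36, Syngr1 -1.34, Cpe -1.05, Aldh3a2 -1.14, Coq8a 0.27, Angptl8 0.47).

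Among sections outside the comparison, 36 h section B held proliferating spots in 0.893% of its spots (18 of 2016), above the 0 h sections, of which the highest held 1 such spot.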

How the results depend on the processing

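Which spots are called proliferating depends on the thinning draw, so the class means are firmer than any spot, and low genes rest on few UMIs. Against 1702 higher and 1726 lower genes, the fit with no replicate block gave 998 and 889, library totals 3891 and 804, DESeq2 941 and 1206, all UMIs 3526 and 3418, exactly 1 UMI 925 and 947, far spots alone 194 and 369 and spots with few other cells 17 and 57. Dropping the pairing by section ended 5 of the 34 calls of the genes named for size. With each section left out in turn, 1336 to 1566 genes were higher and 1339 to 1631 lower. The 34 genes kept their call and sign with DESeq2, library totals, no filter, all UMIs, another seed, 3 or more UMIs and each section left out, while 9 lost the call in far spots, 2 with exactly 1 UMI and 24 of the 32 tested in spots with few other cells.

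In macrophage-rich spots the counts of 0 and 27 became 89 and 190 with an 80th percentile limit and 30 and 204 with all UMIs (chosen after seeing the data). They ranged from 0 to 6 and from 0 to 51 with a section left out, with 6 and 51 without section D and 0 lower without section C. In far spots 269 and 408 became 20 and 64, and 1205 and 1169, and ranged from 121 to 261 and from 210 to 361, lowest without section C. Differences between strata, 20 and 64, became 0 and 13, and 136 and 330, and ranged from 3 to 33, lowest without section B, and from 23 to 86, lowest without section C. The cause was not tested.

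Directions reversed for some genes. In spots with few other cells these were Tuba1a (-0.020), Adam8 (-0.81), Gpnmb (-0.10), Lyz2 (-0.0077), C1qb (-0.073), Pecam1 (-0.046), Hba-a1 (-0.30), Scd1 (0.0047), Cdk6 (-0.37), Cdk2 (-0.32), Myc (-0.15), Rbl2 (0.34) and Cyp2e1 (0.48). In far spots alone these were Cdk2 (-0.29), Rbl2 (0.22) and Cyp2e1 (0.27), with library totals Rbl2 (0.086) and Cyp2e1 (0.025), with 3 or more UMIs Cdk6 (-0.075), and with another seed Cdkn1b (-0.013). With the 80th percentile the difference between strata was -0.044 for Hgd and 0.10 for Col1a1.

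With 3 or more UMIs the distance to macrophage-rich spots differed by -1.28 steps and the share of macrophage-rich spots by 44.9 percentage points. With 2 or more UMIs and the 80th percentile limit that share differed by 43.3. With 3 or more UMIs the mean log2 ratios of the lists were 1.16 for replication, 0.94 nucleotide supply, 1.202 mitotic kinases, 1.27 kinetochore, 1.44 condensation, 0.89 G1, 1.01 tubulin, 0.74 ribosome biogenesis, 0.78 p53 targets, -0.60 hepatocyte, -0.49 central, -0.87 portal, 1.24 migratory, -0.55 acute phase, -0.23 cholesterol, 2.05 lesion macrophage, 1.63 other macrophage, 1.36 Kupffer, 1.93 neutrophil, 1.72 mesenchyme, 0.80 endothelium and 1.27 cholangiocyte. Another seed gave 0.86 for mitotic kinases and 1.084 for condensation.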
